A study of Mus musculus with 16 samples.

Results

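The trunk *Hox* genes of paralog groups 6 to 8 were examined in mouse embryos that lacked *Kat6a*, overexpressed *Kat6b* or did both. The 8 genes, *Hoxa6*, *Hoxb6*, *Hoxc6*, *Hoxa7*, *Hoxb7*, *Hoxb8*, *Hoxc8* and *Hoxd8*, were taken by gene symbol from the 26411 genes of the count files, and all 8 were among the 15679 genes that passed the filter on low counts. *Hox* genes number 39 in these files. The RNA of 16 whole embryos at embryonic day (E) 9.5 was sequenced, 4 of each of 4 genotypes, and each genotype held 2 females and 2 males. The wild-type embryos were Kat6a+/+Kat6b+/+. The Kat6a–/–Kat6b+/+ embryos were homozygous for a null allele of *Kat6a* that lacks exons 5 to 9. The Kat6a+/+Tg(Kat6b) embryos carried *Tg(Kat6b)*, a bacterial artificial chromosome from a single germline founder that holds the whole *Kat6b* gene under its own regulatory sequence. The Kat6a–/–Tg(Kat6b) embryos carried both alleles. All mice were on a mixed FVB and BALB/c background, on which the transgene is tolerated.

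The embryos came from 6 litters. The wild-type embryos came 1 each from 4 litters, and those litters also held every Kat6a–/–Kat6b+/+ and every Kat6a+/+Tg(Kat6b) embryo. The Kat6a–/–Tg(Kat6b) embryos came from 2 further litters that gave no other genotype, so litter and genotype cannot be told apart in any comparison with them. Total counts ranged from 14407277 to 45665680 per embryo, and each of the 8 genes was covered by 150 to 2610 counts per embryo. As CPM, which are counts scaled to the library size, *Kat6b* stood at 46.2 ± 2.45 (SD, n = 4) in wild-type embryos and at 49.1 ± 2.03 where only *Kat6a* was lost. With the transgene alone it reached 192 ± 29.7 CPM, and with both alleles 197 ± 4.92 CPM, as the transgene labels state. *Kat6a* stood at 199 ± 16.5 CPM in wild-type and 202 ± 15.2 CPM in Kat6a–/–Kat6b+/+ embryos (SD, n = 4; edgeR FDR = 0.89). These counts cover the whole gene and do not separate exons 5 to 9 from the rest, so they do not check the deletion.

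*Hox* genes encode homeodomain transcription factors that give cells their position along the head to tail axis. They lie in 4 clusters, HoxA to HoxD, are switched on in the order in which they lie, and carry paralog numbers that follow that order. Paralogs of groups 6 to 8 are active in the thoracic spinal cord, the paraxial and lateral plate mesoderm of the trunk and the flank, and are used in vertebral, rib, limb and motor neuron patterning. KAT6A and KAT6B are paired paralogous histone acetyltransferases of a chromatin complex found at active genes, and KAT6A is known as a positive regulator of *Hox* gene expression.

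In mouse genome build GRCm39, *Hoxa6* (Entrez Gene 15403) lies on the minus strand at chr6:52183268-52185702 and *Hoxa7* (15404) on the same strand at chr6:52191471-52198834. The HoxB members lie in a row on the plus strand, *Hoxb8* (15416) at chr11:96172731-96176160, *Hoxb7* (15415) at chr11:96177449-96180988 and *Hoxb6* (15414) at chr11:96183280-96192395. *Hoxc8* (15426) lies at chr15:102898851-102902543 and *Hoxc6* (15425) at chr15:102906689-102920315, both on the plus strand. *Hoxd8* (15437) lies on the plus strand at chr2:74534959-74538297. All 8 are annotated as protein-coding genes.

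The RefSeq promoter windows (GRCm38.p6, 250 bases before the annotated start) of *Hoxa6*, *Hoxa7* and *Hoxb8* are shown because the first of these genes fell in Kat6a–/–Kat6b+/+ embryos while the other 2 did not pass the test. The window of *Hoxd8* was also matched, and the other members were not looked up elsewhere. Each window is printed up to the first base that lies in a GENCODE exon of any gene, which leaves 200 bases for *Hoxa6*, 107 for *Hoxa7* and all 250 for *Hoxb8*, read 5′ to 3′ on the strand of the gene. In GRCm39 these stretches lie at chr6:52185703-52185902, chr6:52195697-52195803 and chr11:96172481-96172730. The *Hoxa7* stretch precedes the RefSeq start but lies inside the longer span that GENCODE gives the gene, in none of its exons. Capitals mark TTTAT or its reverse complement ATAAA, the core letters of the site that CDX homeodomain factors bind.
Hoxa6: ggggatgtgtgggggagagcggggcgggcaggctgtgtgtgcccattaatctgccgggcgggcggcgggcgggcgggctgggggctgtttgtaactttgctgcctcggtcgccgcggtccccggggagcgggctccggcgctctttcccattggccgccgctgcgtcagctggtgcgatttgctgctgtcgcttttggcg
Hoxa7: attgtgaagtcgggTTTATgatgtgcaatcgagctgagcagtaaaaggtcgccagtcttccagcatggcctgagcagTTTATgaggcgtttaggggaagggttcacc
Hoxb8: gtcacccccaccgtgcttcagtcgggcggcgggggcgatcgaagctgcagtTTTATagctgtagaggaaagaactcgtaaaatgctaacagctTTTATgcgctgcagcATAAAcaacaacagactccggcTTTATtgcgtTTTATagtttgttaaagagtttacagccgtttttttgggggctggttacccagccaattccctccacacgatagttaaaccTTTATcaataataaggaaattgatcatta

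The *Hoxa6* window held 0 copies of TTTAT on either strand, 5 copies of GGGCGG, the letters of a GC box, and 24 CpG dinucleotides at 65.2% GC. Of the 32851 windows of the same length in the RefSeq table, 88.0% held fewer CpGs. The *Hoxa7* window held 2 copies of TTTAT, 0 of GGGCGG and 7 CpGs, and the *Hoxb8* window 6 copies of TTTAT, 1 of GGGCGG and 12 CpGs. Among all windows 37.3% held TTTAT, 32.7% held GGGCGG and 12.4% held TATAAA, the letters of a TATA box, each searched on both strands. TATAAA occurred 2 times in the *Hoxb8* window and in neither HoxA window, and every TATAAA contains the reverse complement of TTTAT, so these counts overlap. The *Hoxd8* window held none of the 3 motifs and 6 CpGs, which is the median of all windows. These matches describe the letters of the windows only.

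Levels per length in wild-type embryos depended on the gene length used. On a scale per length (RPKM, the CPM divided by the deposited gene length in kilobases), *Hoxb8* was the highest at 20.5 ± 0.971 (SD, n = 4), followed by *Hoxc6* at 13.04 ± 0.870. *Hoxb6* at 10.6 ± 0.874, *Hoxc8* at 9.45 ± 0.505 and *Hoxb7* at 9.26 ± 1.17 formed a middle group, in which neighbours in the order had overlapping ranges over embryos. *Hoxa6* at 6.61 ± 0.445 and *Hoxd8* at 6.06 ± 0.181 overlapped as well, and *Hoxa7* was the lowest at 5.15 ± 0.543. By the deposited lengths *Hoxb8* lay above *Hoxc6*, *Hoxc6* above *Hoxb6*, *Hoxb7* above *Hoxa6* and *Hoxd8* above *Hoxa7* in every wild-type embryo. In Kat6a–/–Kat6b+/+ embryos *Hoxa6* stood last by this scale, at 4.30 ± 0.544 RPKM. GENCODE exon lengths, tried after the data had been examined, changed this order: 1 of 8 genes, *Hoxb8*, kept its rank in wild type. For *Hoxa6* the deposited length is 2254 bases and the GENCODE exons hold 874, which put *Hoxa6* next to the top at 17.04 RPKM in wild-type and 11.1 RPKM in Kat6a–/–Kat6b+/+ embryos. By the GENCODE lengths *Hoxc6* stood at 8.23 RPKM in wild type and *Hoxd8* was the lowest, at 4.71 RPKM. *Hoxb8* was the highest of the 8 in each genotype by both lengths, and the other ranks are not settled by these counts.

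The first comparison asked which trunk *Hox* genes depend on KAT6A. In Kat6a–/–Kat6b+/+ embryos *Hoxa6* was reduced by 34.8% and *Hoxc6* by 16.7% relative to wild type, and no member was called higher. Thus 2 of 8 members were called, both lower, in a comparison in which 0.938% of all genes tested were called lower, 0.944% higher and 1.88% in either direction. A gene was called when its p-value from the quasi-likelihood test of edgeR, adjusted over all 15679 genes to a false discovery rate (FDR) by the method of Benjamini and Hochberg, was under 0.05. All members called belonged to paralog group 6, and none of groups 7 and 8 passed. In RNA of whole embryos, fewer cells that express a gene and less RNA per cell cannot be told apart.

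*Hoxa6* stood at 13.7, 15.4, 15.98 and 14.6 CPM in the 4 wild-type embryos and at 8.30, 9.62, 11.3 and 9.58 CPM in the 4 Kat6a–/–Kat6b+/+ embryos. Every Kat6a–/–Kat6b+/+ embryo lay below every wild-type embryo. The log2 fold change was -0.62 ± 0.094 (SE; 95% confidence interval -0.81 to -0.42; edgeR FDR = 0.001). *Hoxa6* acts in the thoracic region of the skeleton. Its call held in 16 of 16 fits that left out 1 embryo. It did not hold where litter was a block in the fit, which used the 12 embryos whose litters held a wild-type embryo (log2 fold change -0.58, edgeR FDR = 0.132), where 18 genes were called in all.

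*Hoxc6*, which is expressed in the trunk at the level of the forelimb and behind it, stood at 19.1, 21.3, 22.4 and 20.3 CPM in wild-type embryos and at 16.04, 18.7, 17.8 and 16.4 CPM in Kat6a–/–Kat6b+/+ embryos. These groups did not overlap either, and the highest Kat6a–/–Kat6b+/+ embryo lay just under the lowest wild-type embryo. The log2 fold change was -0.26 ± 0.067 (SE; 95% confidence interval -0.40 to -0.12; edgeR FDR = 0.0442). This call lay close to the threshold. It was lost with litter as a block (edgeR FDR = 0.588), with no surrogate variable (0.0753), with sex in their place (0.0798) and in limma-voom (adjusted p = 0.0552). Among the fits that left out 1 embryo it was kept without wild-type replicate 1, Kat6a–/–Kat6b+/+ replicate 2 or Kat6a+/+Tg(Kat6b) replicate 1 or 3. Without any one of the other 12 embryos the edgeR FDR of *Hoxc6* lay between 0.0509 and 0.168, with a log2 fold change between -0.29 and -0.22.

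The remaining member of group 6, *Hoxb6*, stood at 14.5, 16.7, 14.9 and 13.9 CPM in wild-type embryos and at 12.5, 13.5, 14.1 and 11.1 CPM in Kat6a–/–Kat6b+/+ embryos. The groups overlapped in 1 embryo of each genotype, Kat6a–/–Kat6b+/+ replicate 3 and wild-type replicate 4. The log2 fold change of -0.23 ± 0.094 (SE) did not pass (edgeR FDR = 0.232), and its 95% confidence interval ran from -0.43 to -0.04. *Hoxb6* is used in the lateral plate mesoderm and its derivatives.

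**Figure D1:**
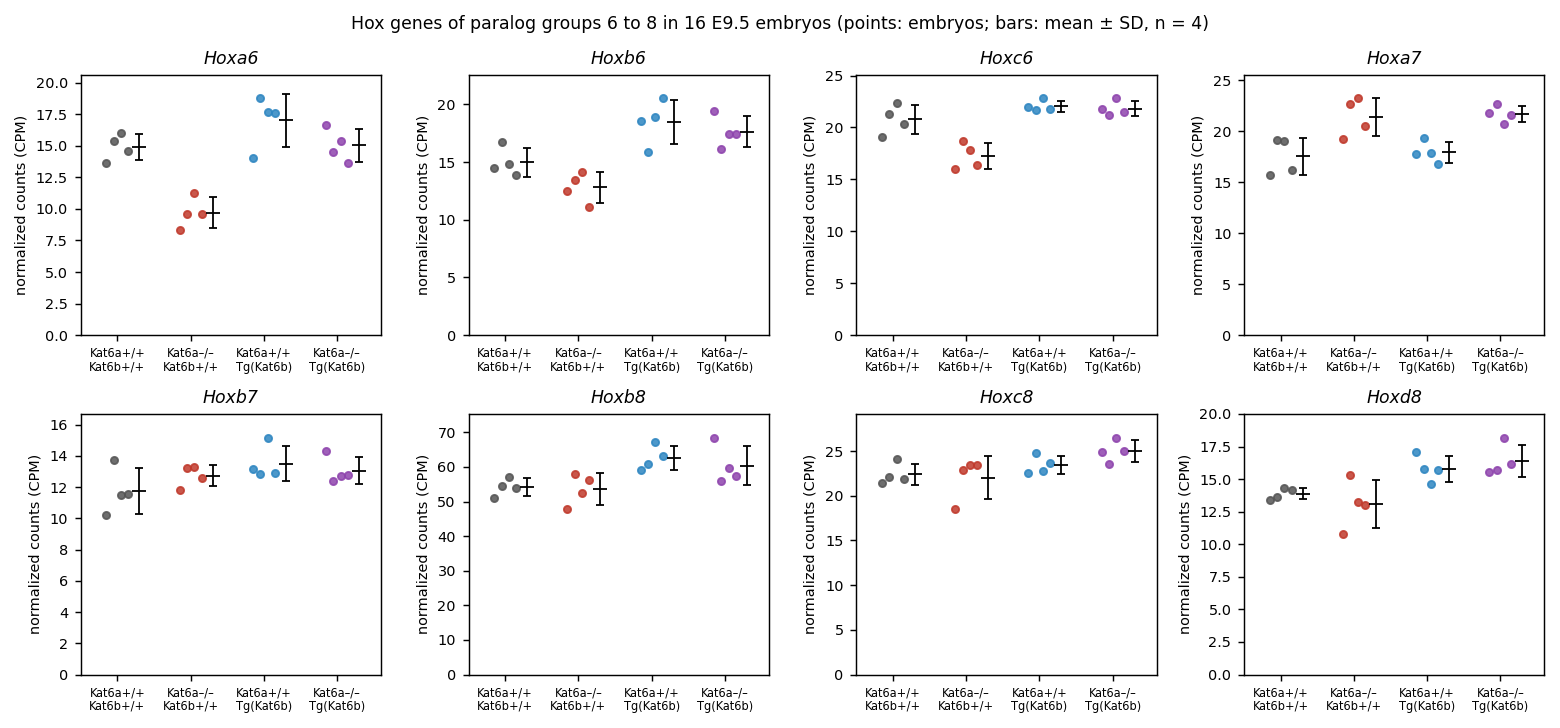
Normalized counts (CPM, y axis) of the 8 trunk *Hox* genes in each embryo, by genotype (x axis), with points for embryos and bars for the mean ± SD (n = 4). In *Hoxa6* the Kat6a–/–Kat6b+/+ embryos lie between 8.30 and 11.3 CPM, below all wild-type embryos, while in *Hoxa7* they lie between 19.3 and 23.2 CPM, above all of them.

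Of the paralog group 7 genes, *Hoxa7* stood at 15.7, 19.2, 19.1 and 16.2 CPM in wild-type embryos and at 19.3, 22.7, 23.2 and 20.5 CPM in Kat6a–/–Kat6b+/+ embryos. All Kat6a–/–Kat6b+/+ embryos lay above all wild-type embryos, the lowest of them by a small margin. The log2 fold change of 0.29 ± 0.080 (SE; 95% confidence interval 0.12 to 0.45) did not pass (edgeR FDR = 0.0672). Without wild-type replicate 2 it was called (edgeR FDR = 0.0477), as it was by DESeq2 (adjusted p = 0.0433). *Hoxb7* stood at 10.2, 13.8, 11.5 and 11.5 CPM in wild-type and 11.8, 13.2, 13.3 and 12.6 CPM in Kat6a–/–Kat6b+/+ embryos, and the groups overlapped. Its log2 fold change of 0.13 had a 95% confidence interval of -0.06 to 0.31 (edgeR FDR = 0.536). Both genes are used in patterning of the thoracic vertebrae and ribs.

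The paralog group 8 genes showed small fitted differences. *Hoxb8*, which acts in the trunk spinal cord and is also known from myeloid cells, stood at 50.9, 54.5, 57.2 and 54.0 CPM in wild-type and 47.9, 58.0, 52.4 and 56.3 CPM in Kat6a–/–Kat6b+/+ embryos. The groups overlapped, and the 95% confidence interval of the log2 fold change, -0.12 to 0.12, covers a change of at most that size either way (edgeR FDR = 0.995). *Hoxc8*, known from motor neurons of the brachial cord and from the ribs, stood at 21.4, 22.1, 24.1 and 21.9 CPM in wild-type and 18.5, 22.8, 23.4 and 23.4 CPM in Kat6a–/–Kat6b+/+ embryos (95% confidence interval of the log2 fold change -0.16 to 0.13, edgeR FDR = 0.95). *Hoxd8* stood at 13.4, 13.6, 14.3 and 14.1 CPM in wild-type and 10.8, 15.3, 13.2 and 13.02 CPM in Kat6a–/–Kat6b+/+ embryos (95% confidence interval -0.26 to 0.12, edgeR FDR = 0.778). Kat6a–/–Kat6b+/+ replicate 1 was the lowest embryo of all 4 genotypes in each of these 3 genes.

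By paralog group, the median log2 fold change in Kat6a–/–Kat6b+/+ embryos was -0.26 for the 3 genes of group 6, 0.21 for the pair of group 7 and -0.01 for the 3 of group 8. It was -0.04 over the 8 members and 0.00325 over all genes tested. Without overlap between embryos, 2 members were lower and 1 was higher, where 4.01% and 3.96% of all genes tested were lower or higher without overlap. The summed RPKM of the group 6 genes was 30.2 ± 1.86 in wild-type and 24.1 ± 1.95 in Kat6a–/–Kat6b+/+ embryos (SD, n = 4), with ranges of 28.3 to 32.0 and 22.4 to 26.1 by the deposited lengths. By GENCODE lengths these sums were 31.7 ± 1.99 and 23.4 ± 2.14, also without overlap. The sum of group 8 was 36.0 ± 1.60 and 35.3 ± 3.31 RPKM in the same genotypes, with overlapping ranges.

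The next comparison asked whether *Kat6b* overexpression altered trunk *Hox* expression in the absence of *Kat6a*. In Kat6a–/–Tg(Kat6b) embryos 5 of 8 members were called higher than in Kat6a–/–Kat6b+/+ embryos, *Hoxa6*, *Hoxb6*, *Hoxc6*, *Hoxb8* and *Hoxd8*, and none was called lower. Of all genes tested, 3.39% were called higher, 3.74% lower and 7.14% in either direction. All 8 fitted differences were above 0, as were 48.6% of those of all genes tested. This comparison shares the 4 Kat6a–/–Kat6b+/+ embryos with the one above, so the values of those embryos enter both.

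*Hoxa6* stood at 16.6, 14.5, 15.4 and 13.6 CPM in Kat6a–/–Tg(Kat6b) embryos, all above the highest Kat6a–/–Kat6b+/+ embryo at 11.3 CPM. The log2 fold change was 0.69 ± 0.096 (SE; 95% confidence interval 0.50 to 0.89; edgeR FDR = 0.000236). *Hoxb6* stood at 19.4, 16.1, 17.4 and 17.5 CPM against at most 14.1 CPM in Kat6a–/–Kat6b+/+ embryos, a log2 fold change of 0.47 ± 0.095 (SE; edgeR FDR = 0.00524). *Hoxc6* stood at 21.7, 21.2, 22.8 and 21.5 CPM against at most 18.7 CPM, a log2 fold change of 0.35 ± 0.068 (SE; edgeR FDR = 0.00425). In each of these group 6 genes the genotypes did not overlap. Their 3 calls held in 16 of 16 fits that left out 1 embryo and under 8 of 8 other settings.

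In group 7 the 2 genotypes were close. *Hoxa7* was at 21.8, 22.6, 20.7 and 21.5 CPM, within the Kat6a–/–Kat6b+/+ range, with a log2 difference of 0.01 and a 95% confidence interval of -0.16 to 0.18 (edgeR FDR = 0.958). *Hoxb7* was at 14.3, 12.4, 12.7 and 12.8 CPM, with a log2 difference of 0.04 and an interval of -0.15 to 0.23 (edgeR FDR = 0.843). Neither interval reached the fitted increase of any group 6 gene.

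In group 8, *Hoxb8* stood at 68.5, 55.8, 59.8 and 57.3 CPM in Kat6a–/–Tg(Kat6b) embryos, and its groups overlapped. Its log2 fold change was 0.21 ± 0.060 (SE; edgeR FDR = 0.0386). The call was lost without wild-type replicate 3, Kat6a–/–Kat6b+/+ replicate 1, 3 or 4, or Kat6a–/–Tg(Kat6b) replicate 1, 2 or 4 (edgeR FDR 0.0517 to 0.191), and without surrogate variables *Hoxb8* had a log2 fold change of 0.17 (edgeR FDR = 0.152). *Hoxd8* stood at 15.6, 15.7, 18.2 and 16.1 CPM, all above the highest Kat6a–/–Kat6b+/+ embryo at 15.3 CPM, with a log2 fold change of 0.32 ± 0.092 (SE; edgeR FDR = 0.0376). Its call was lost without Kat6a–/–Kat6b+/+ replicate 1, 3 or 4 or Kat6a–/–Tg(Kat6b) replicate 2, 3 or 4 (edgeR FDR 0.0611 to 0.157). *Hoxc8* stood at 24.9, 23.5, 26.5 and 24.97 CPM, also above every Kat6a–/–Kat6b+/+ embryo, but its log2 difference of 0.21 ± 0.070 (SE; 95% confidence interval 0.07 to 0.36) did not pass (edgeR FDR = 0.0694), except in the fit without wild-type replicate 2 (edgeR FDR = 0.0472). Altogether 5 members lay higher without overlap, and 7.29% of all genes tested did.

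**Figure D2:**
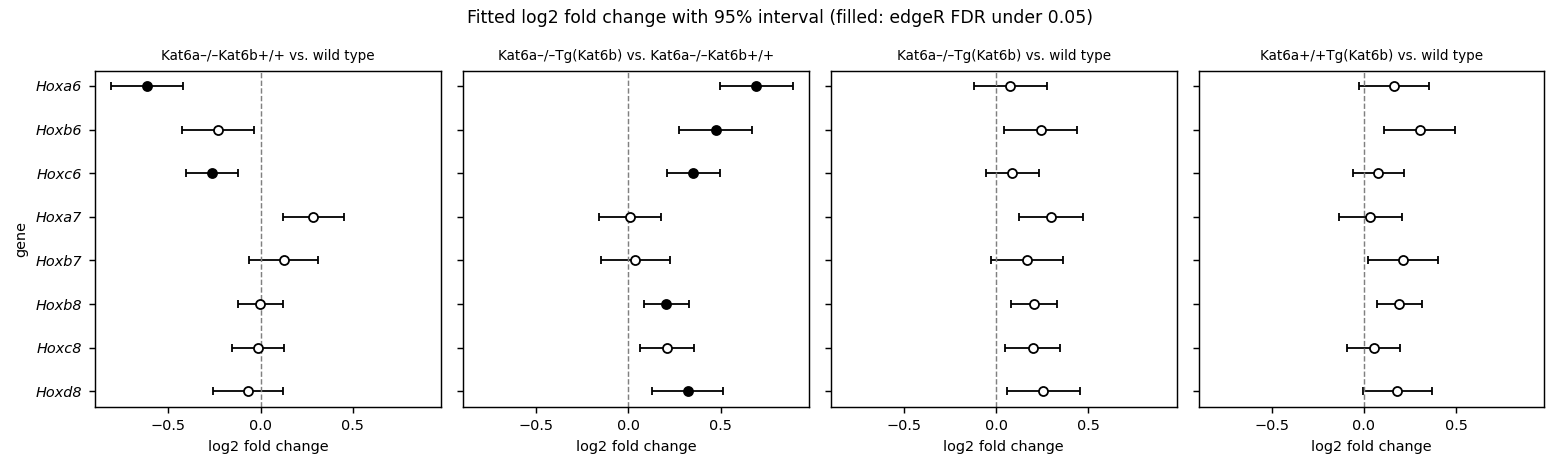
Fitted log2 fold change (x axis) of each trunk *Hox* gene (y axis) in 4 comparisons, with 95% confidence intervals as bars and filled points where the edgeR FDR was under 0.05. *Hoxa6* lies at -0.62 in Kat6a–/–Kat6b+/+ against wild-type embryos and at 0.69 in Kat6a–/–Tg(Kat6b) against Kat6a–/–Kat6b+/+ embryos, while *Hoxa7* lies at 0.29 and 0.01.

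Set against wild type, 0 of 8 members were called in Kat6a–/–Tg(Kat6b) embryos, where 0.67% of all genes tested were called. By edgeR, 5 members had an unadjusted p under 0.05, all of them higher, as did 5.72% of all genes tested; DESeq2 and limma-voom called 0 members as well. The group 6 genes *Hoxa6* and *Hoxc6* differed from wild type by 0.08 (95% confidence interval -0.12 to 0.27) and 0.09 (-0.06 to 0.23) on the log2 scale. *Hoxa7* differed by 0.30 (95% confidence interval 0.12 to 0.47; edgeR FDR = 0.114), and every Kat6a–/–Tg(Kat6b) embryo lay above every wild-type embryo. It was called without wild-type replicate 2 (log2 fold change 0.40, edgeR FDR = 0.0399). *Hoxd8* also lay higher without overlap, by 0.25 (0.06 to 0.45; edgeR FDR = 0.245), where 3.42% of all genes tested lay higher in this way. All 8 differences were above 0, against 48.8% over all genes tested, with a median of 0.20.

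*Kat6b* overexpression on a *Kat6a*+/+ background gave 0 calls among the 8 members, and 0.14% of all genes tested were called. By edgeR 3 members, *Hoxb6*, *Hoxb7* and *Hoxb8*, had an unadjusted p under 0.05 and were higher, where 4.09% of all genes were, and neither DESeq2 nor limma-voom called any. *Hoxb6* stood at 18.5, 15.9, 18.9 and 20.5 CPM in Kat6a+/+Tg(Kat6b) embryos, with 1 embryo inside the wild-type range, and differed from wild type by 0.30 on the log2 scale (95% confidence interval 0.11 to 0.50; edgeR FDR = 0.201). *Hoxb8* stood at 59.0, 60.9, 67.2 and 63.1 CPM, above every wild-type embryo, and differed by 0.19 (0.07 to 0.31; edgeR FDR = 0.201). *Hoxd8* at 17.1, 15.8, 14.6 and 15.7 CPM was above every wild-type embryo too, by 0.18 (-0.01 to 0.37). These 2 genes were the members without overlap, which 1.62% of all genes tested were in that direction. *Hoxa6* at 14.003, 18.8, 17.6 and 17.6 CPM overlapped the wild-type range. The fitted difference was above 0 in all 8 members, with a median of 0.17, and in 50.8% of all genes tested.

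The direct comparison of Kat6a–/–Tg(Kat6b) with Kat6a+/+Tg(Kat6b) embryos called 0 of 8 members, against 3.41% of all genes tested. By edgeR 1 member, *Hoxa7*, had an unadjusted p under 0.05 and was higher, as were 10.6% of all genes. No other tool called a member. *Hoxa7* lay higher in every Kat6a–/–Tg(Kat6b) embryo, 20.7 to 22.6 CPM against 16.8 to 19.3 CPM, as 6.09% of all genes did, by 0.26 on the log2 scale (95% confidence interval 0.08 to 0.44; edgeR FDR = 0.0968), and it was called without wild-type replicate 2 (0.30, edgeR FDR = 0.0303). The other 7 members differed by -0.09 to 0.15.

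Whether the effect of *Kat6a* loss differed with the transgene was tested by the interaction term of the fit. It called 0 of 8 members, against 0.153% of all genes tested, and 2 members had an unadjusted p under 0.05 with an estimate above 0, as did 7.47% of all genes. *Hoxa6* had the largest estimate of the 8, 0.53 on the log2 scale (95% confidence interval 0.25 to 0.81), which did not pass (edgeR FDR = 0.115). DESeq2 called it (adjusted p = 0.0396). *Hoxc6* followed at 0.28 (0.07 to 0.48; edgeR FDR = 0.21), and *Hoxb7* was the lowest at -0.17 (-0.44 to 0.10; edgeR FDR = 0.56).

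Neighbouring genes of a cluster could be compared within each embryo, where sequencing depth cancels. The RPKM of *Hoxa6* was 1.29 ± 0.0636 times that of *Hoxa7* in wild-type embryos (SD, n = 4; range 1.21 to 1.36) and 0.683 ± 0.0450 times in Kat6a–/–Kat6b+/+ embryos (0.640 to 0.734). Every Kat6a–/–Kat6b+/+ embryo thus lay below every wild-type embryo. That follows from the values above, since all Kat6a–/–Kat6b+/+ embryos were lower in *Hoxa6* and higher in *Hoxa7*. For this pair the ratio is therefore no further check. The size of the ratio rests on the gene lengths, and by GENCODE exon lengths it was 2.81 ± 0.139 and 1.49 ± 0.0983, so which of the pair was higher in Kat6a–/–Kat6b+/+ embryos is not settled. The gene length scales all embryos alike and leaves the comparison of genotypes as it is. In Kat6a–/–Tg(Kat6b) embryos the ratio was 1.05 ± 0.103 (0.953 to 1.16), above the Kat6a–/–Kat6b+/+ and below the wild-type range, and in Kat6a+/+Tg(Kat6b) embryos it was 1.43 ± 0.167 (1.19 to 1.58). *Hoxb6* to *Hoxb7* was also lowest in the same genotype, at 1.15 ± 0.0885 in wild-type, 0.899 ± 0.0745 in Kat6a–/–Kat6b+/+ and 1.21 ± 0.0291 in Kat6a–/–Tg(Kat6b) embryos. *Hoxc6* to *Hoxc8* stood at 1.38 ± 0.0401, 1.17 ± 0.108 and 1.30 ± 0.0272 in these genotypes. Wild-type and Kat6a–/–Kat6b+/+ ranges were apart in all 3 of these ratios. How often the ratios of other gene pairs lie apart was not examined. The ratio of *Hoxb7* to *Hoxb8*, which holds no group 6 gene, was 0.452 in wild-type and 0.496 in Kat6a–/–Kat6b+/+ embryos, with overlapping ranges.

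**Figure D3:**
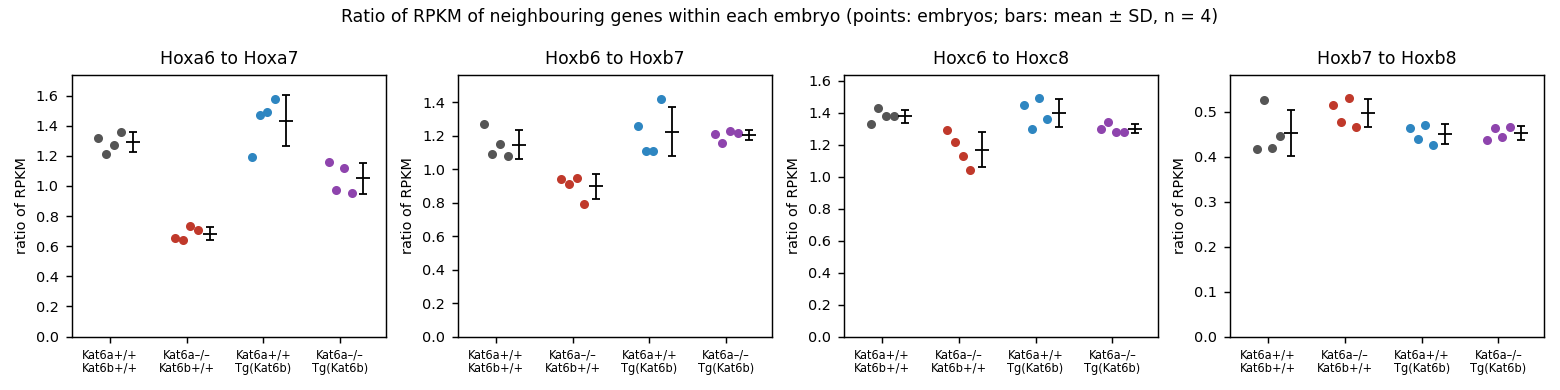
Ratio of the RPKM of neighbouring trunk *Hox* genes within each embryo (y axis), by genotype (x axis), with points for embryos and bars for the mean ± SD (n = 4). The *Hoxa6* to *Hoxa7* ratio lies between 1.21 and 1.36 in wild-type and between 0.640 and 0.734 in Kat6a–/–Kat6b+/+ embryos, and in Kat6a–/–Tg(Kat6b) embryos it lies between 0.953 and 1.16.

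Litter and sex varied within the genotypes, so the differences were also taken within them. Litters that held both genotypes gave 2 Kat6a–/–Kat6b+/+ embryos against 1 wild-type embryo each. In these 2 litters *Hoxa6* differed by -0.61 and -0.56 on the log2 scale, *Hoxb6* by -0.16 and -0.42, and *Hoxc6* by -0.14 and -0.32. *Hoxa7* differed by 0.42 and 0.19. The directions of the group 6 genes and of *Hoxa7* were the same in both litters, while *Hoxb7* differed by 0.30 and -0.09 and *Hoxb8* by 0.05 and -0.01. For *Hoxa6*, *Hoxc6* and *Hoxa7*, whose groups did not overlap, any split by litter or sex gives the same sign. For these genes the shared direction is therefore no check on litter or sex. In *Hoxb6* the wild-type embryos of these litters, at 14.5 and 16.7 CPM, lay above every Kat6a–/–Kat6b+/+ embryo, at most 14.1 CPM. Its sign within these litters was thus fixed as well. Within females and within males, *Hoxa6* differed by -0.77 and -0.48, *Hoxc6* by -0.30 and -0.24 and *Hoxa7* by 0.25 and 0.33. Sex and litter coincided among the Kat6a–/–Kat6b+/+ embryos, whose females came from 1 litter and males from the other.

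Within the sexes, Kat6a–/–Tg(Kat6b) minus Kat6a–/–Kat6b+/+ embryos differed by 0.65 in females and 0.62 in males for *Hoxa6*, by 0.37 and 0.56 for *Hoxb6*, and by 0.30 and 0.38 for *Hoxc6*. *Hoxd8* differed by 0.31 and 0.36, and *Hoxa7* by 0.08 and -0.04. The groups of *Hoxa6*, *Hoxb6*, *Hoxc6* and *Hoxd8* did not overlap in this comparison, so their signs within each sex were fixed. Within the litters that held both Kat6a+/+Tg(Kat6b) and wild-type embryos, *Hoxb6* differed by 0.25 and 0.57 and *Hoxb8* by 0.12 and 0.22. These litters gave 3 and 1 Kat6a+/+Tg(Kat6b) embryos against 1 wild-type embryo each. The difference in *Hoxb6* failed the adjusted test, and values that rest on 1 wild-type embryo per litter do not alter that.

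In GENCODE, 3 of the 8 members share exon bases with transcripts of the opposite strand. The libraries did not mark strand, so reads of the paired transcripts cannot be told apart there. The deposited lengths of these genes differ from GENCODE (1419 against 2319 bases for *Hoxb6*), so the overlap within the counted exons is not known. *Hoxb5os* overlaps 714 bases, 30.8% of the GENCODE exon bases of *Hoxb6*. *Hoxb5os* stood at 17.8, 19.7, 16.4 and 14.1 CPM in wild-type and at 11.7, 10.6, 7.56 and 11.4 CPM in Kat6a–/–Kat6b+/+ embryos, without overlap, and fell by 0.72 on the log2 scale (edgeR FDR = 7.03e-05). It was at 15.5, 18.2, 15.5 and 19.5 CPM in Kat6a–/–Tg(Kat6b) embryos, higher than in Kat6a–/–Kat6b+/+ embryos by 0.62 (edgeR FDR = 0.000335). In both comparisons *Hoxb5os* changed in the direction of *Hoxb6*, as it did in Kat6a+/+Tg(Kat6b) against wild-type embryos (0.27 and 0.30). Between Kat6a–/–Tg(Kat6b) and wild-type embryos the signs differed, with *Hoxb5os* at -0.10 and *Hoxb6* at 0.24. Against Kat6a+/+Tg(Kat6b) embryos *Hoxb5os* was called lower (-0.37, edgeR FDR = 0.0313) and *Hoxb6* stood at -0.06. That call held in 7 of 16 fits that left out 1 embryo. The part of *Hoxb5os* in the *Hoxb6* result was not tested. *Hoxaas3* overlaps 586 bases, 20.3%, of *Hoxa7*, and differed by -0.30 in Kat6a–/–Kat6b+/+ embryos, opposite in sign to *Hoxa7* (edgeR FDR = 0.436). *Hoxd3os1* overlaps 443 bases, 15.05%, of *Hoxd8*, and stood at no more than 1.57 CPM in any embryo. At this low level it differed by -1.27 in Kat6a–/–Kat6b+/+ against wild-type embryos, without overlap (edgeR FDR = 0.139). In Kat6a–/–Tg(Kat6b) against Kat6a+/+Tg(Kat6b) embryos it was called lower, by -2.01 (edgeR FDR = 0.0121). The part of *Hoxd3os1* in the *Hoxd8* result was not tested.

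The 8 members were also set among the other *Hox* genes. In Kat6a–/–Kat6b+/+ against wild-type embryos 6 of the 8 lay below 0 and 2 above, and those above were not called. Of the 30 other *Hox* genes tested 7 were called lower in Kat6a–/–Kat6b+/+ than in wild-type embryos and 0 higher, with a median log2 fold change of -0.29, and 28 of the 30 were below 0. The median was -0.14 over paralog groups 1 to 5, with 5 of 15 called lower, and -0.31 over groups 9 to 13, with 2 of 15 called lower. *Hoxb1* (-0.66, edgeR FDR = 1.79e-05) and *Hoxd4* (-0.62, edgeR FDR = 4.13e-06), genes of the hindbrain and neck, had the largest decreases, of about the size seen in *Hoxa6*. *Hoxd3* (-0.44), *Hoxb3* (-0.39), *Hoxa10* (-0.35, edgeR FDR = 0.0166) and *Hoxc4* (-0.35) followed. The *Hoxb1* call was lost with no surrogate variable (edgeR FDR = 0.0864), with 1 (0.0775) and with sex as covariate (0.0802). With litter as a block the calls of *Hoxd4* (0.0576), *Hoxd3* (0.225), *Hoxa10* (0.398) and *Hoxc4* (0.132) were lost. The *Hoxa10* call was also lost without wild-type replicate 3 or Kat6a–/–Kat6b+/+ replicate 1, 2 or 4 (edgeR FDR 0.0502 to 0.0687).

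Between Kat6a–/–Tg(Kat6b) and Kat6a–/–Kat6b+/+ embryos 14 of the 30 other *Hox* genes were called higher and 0 lower, with a median of 0.31, beside 5 of the 8 trunk members with a median of 0.27. Against wild type, 3 of the 30 were called higher in Kat6a–/–Tg(Kat6b) embryos, all of groups 9 to 13, with a median of 0.09 in those groups and 0.01 in groups 1 to 5. The medians of trunk groups 6, 7 and 8 in that comparison were 0.09, 0.23 and 0.21. In Kat6a+/+Tg(Kat6b) against wild-type embryos, 0 of the 30 were called by edgeR, and all 30 differences were above 0 with a median of 0.18. No test of a difference between these sets was made.

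**Figure D4:**
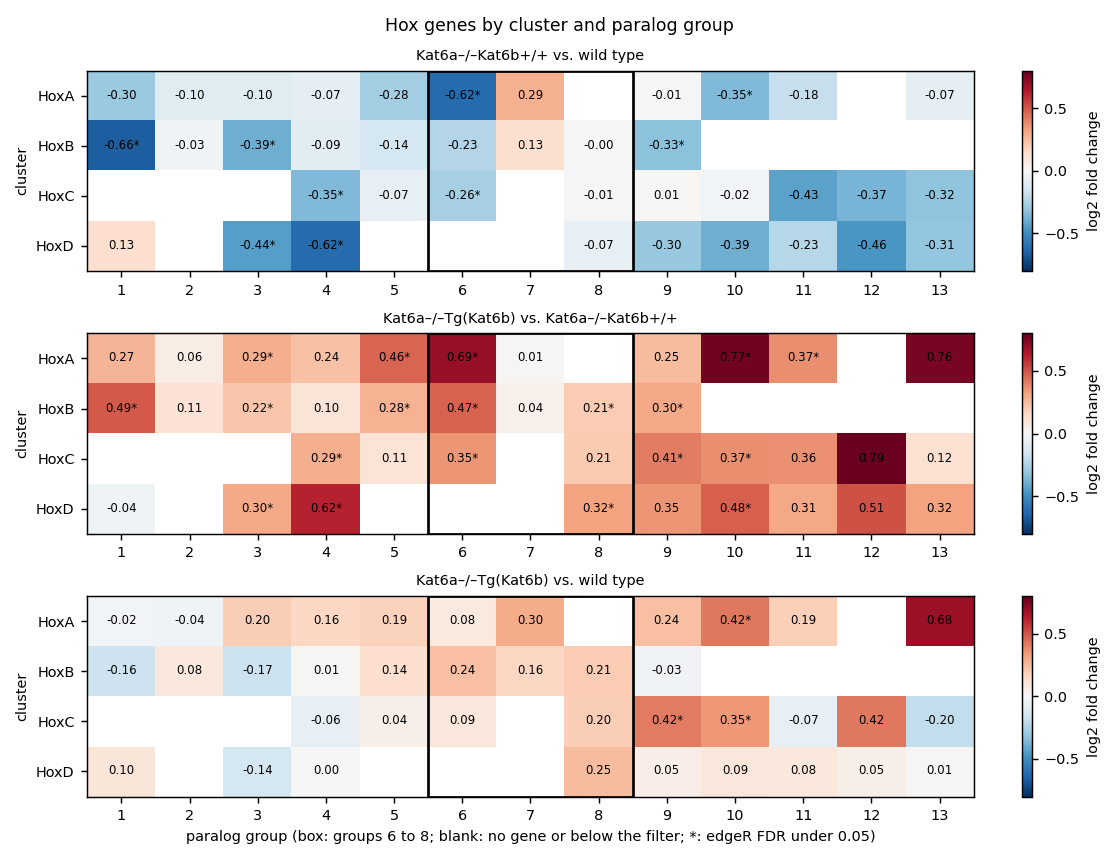
Fitted log2 fold change (colour and printed value) of the *Hox* genes by cluster (y axis) and paralog group (x axis) in 3 comparisons, with groups 6 to 8 boxed, asterisks for an edgeR FDR under 0.05, and blanks where there is no gene or it was below the filter. In Kat6a–/–Kat6b+/+ against wild-type embryos *Hoxa6* stands at -0.62 next to *Hoxa7* at 0.29, and 28 of the 30 *Hox* genes outside the box lie below 0.

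Among 11 regulators of trunk *Hox* expression, 3 were called lower and 0 higher in Kat6a–/–Kat6b+/+ than in wild-type embryos, with a median log2 fold change of -0.16. *Aldh1a2*, which makes retinoic acid, stood at 69.8 to 78.4 CPM in wild-type and 59.2 to 65.3 CPM in Kat6a–/–Kat6b+/+ embryos, without overlap, and fell by 0.27 on the log2 scale (edgeR FDR = 0.0014; 0.0576 with litter as a block). It was at 59.6 to 64.2 CPM in Kat6a–/–Tg(Kat6b) embryos, also lower than wild type by 0.28 on the log2 scale (edgeR FDR = 0.00444), and differed from Kat6a–/–Kat6b+/+ embryos by -0.01. *Aldh1a2* and *Hoxa6* had different orders of genotypes, and the part of *Aldh1a2* in the trunk *Hox* results was not tested. In *Cdx2*, a homeobox regulator of the central and posterior *Hox* genes, values overlapped, 5.35 to 14.1 CPM in wild-type and 4.02 to 9.68 CPM in Kat6a–/–Kat6b+/+ embryos, and the fitted log2 fold change was -0.42 (edgeR FDR = 0.0433). The *Cdx2* call rested on the surrogate variables, without which the edgeR FDR was 0.713, and it held in 7 of 16 fits that left out 1 embryo. *Nr6a1*, a nuclear receptor of trunk development, was called likewise (-0.18, edgeR FDR = 0.0392) and had an edgeR FDR of 0.816 without surrogate variables. In Kat6a+/+Tg(Kat6b) against wild-type embryos 2 of the 11 were called higher and 0 lower, where 0.14% of all genes tested were called. *Cdx2* was among them (0.51, edgeR FDR = 0.0423), and its call held in 3 of 16 fits that left out 1 embryo. Without surrogate variables 0 of the 11 were called in that comparison.

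*Cdx2* was higher in Kat6a–/–Tg(Kat6b) than in Kat6a–/–Kat6b+/+ embryos (log2 fold change 0.66, edgeR FDR = 0.000829; without surrogate variables 1.04, edgeR FDR = 0.112). It stood at 18.2 and 18.0 CPM in Kat6a–/–Tg(Kat6b) replicates 2 and 4 and at no more than 8.75 CPM in the other pair, and *Nr6a1* was also highest in those replicates, at 164 and 166 CPM. None of the 8 trunk members was higher in both of those embryos than in both others, and *Hoxa6* was lower in Kat6a–/–Tg(Kat6b) replicates 2 and 4 than in replicates 1 and 3. Replicates 2 and 4 were the females of this genotype and replicates 1 and 3 its males. The order of the sexes in *Cdx2* was not the same in every genotype. Wild-type males stood at 7.44 and 14.1 CPM and wild-type females at 7.32 and 5.35 CPM. Kat6a–/–Kat6b+/+ females stood at 9.68 and 7.12 CPM and males at 4.02 and 5.52 CPM. The part of sex in this split was not tested. The part of *Cdx2* or *Nr6a1* in the trunk *Hox* results was not tested. Of 9 *Hox* cofactors of the PBX, MEIS and PREP families, 1 was called lower in Kat6a–/–Kat6b+/+ embryos, *Pknox1*, at 28.7 CPM against 35.6 CPM in wild type (log2 fold change -0.30, edgeR FDR = 0.0108; 0.0615 without wild-type replicate 3 and 0.289 with litter as a block). Of 20 Polycomb and trithorax genes, which keep *Hox* genes silent or active, 1 was called higher, *Bmi1*, at 119 CPM against 102 CPM (log2 fold change 0.23, edgeR FDR = 0.00381; 0.0908 with litter as a block).

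**Figure D5:**
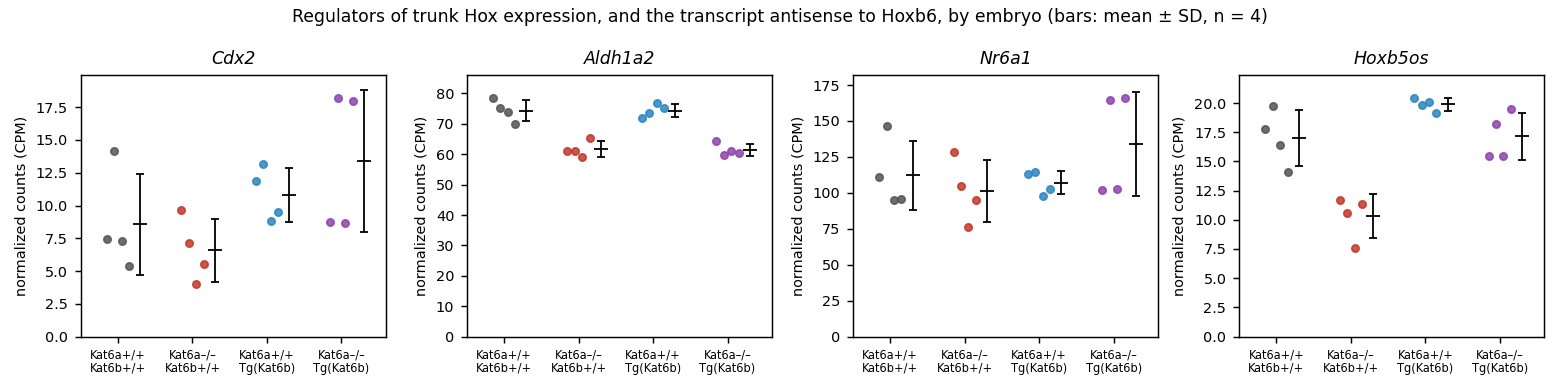
Normalized counts (CPM, y axis) of *Cdx2*, *Aldh1a2*, *Nr6a1* and *Hoxb5os* in each embryo, by genotype (x axis), with points for embryos and bars for the mean ± SD (n = 4). *Aldh1a2* lies lower in both genotypes that lack *Kat6a*, while *Hoxb5os* is lowest in Kat6a–/–Kat6b+/+ embryos and *Cdx2* splits the Kat6a–/–Tg(Kat6b) embryos into pairs near 18 and below 8.75 CPM. The higher pair are the females of that genotype and the lower pair its males, an order that the wild-type embryos did not share.

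Markers of the tissues in a whole embryo were summed to see whether tissue content moved with the genotypes. Neural tube markers summed to 362 to 378 CPM in wild-type and 340 to 353 CPM in Kat6a–/–Kat6b+/+ embryos, without overlap, and 0 of 6 were called. They summed to 335 to 357 CPM in Kat6a–/–Tg(Kat6b) embryos, in which *Hoxa6* differed from wild type by 0.08 on the log2 scale. In Kat6a+/+Tg(Kat6b) embryos, in which all 8 members had fitted differences above 0, they summed to 383 to 427 CPM, above every wild-type embryo. Lateral plate and limb bud markers summed to 209 to 260 CPM in wild-type, 201 to 231 CPM in Kat6a–/–Kat6b+/+ and 229 to 254 CPM in Kat6a–/–Tg(Kat6b) embryos, and 0 of 6 were called in Kat6a–/–Kat6b+/+ embryos. Of 6 somite markers 1, *Uncx*, was called lower in Kat6a–/–Kat6b+/+ embryos (log2 fold change -0.34, edgeR FDR = 0.0136), and the sums of the list overlapped, 177 to 219 and 178 to 189 CPM. The *Uncx* call was lost without wild-type replicate 2 or 4 or Kat6a–/–Kat6b+/+ replicate 4 (edgeR FDR 0.0536 to 0.0705), with no surrogate variable (0.0604) and with litter as a block (0.0959). Presomitic and tailbud markers summed to 38.99 to 58.6 CPM in wild-type and 44.0 to 53.1 CPM in Kat6a–/–Kat6b+/+ embryos. Between Kat6a–/–Tg(Kat6b) and Kat6a–/–Kat6b+/+ embryos *Tbx5*, a forelimb and heart gene, was higher by 0.66 (edgeR FDR = 0.0245) and *Nkx1-2*, a tailbud gene, by 0.65 (edgeR FDR = 0.00829; 0.0508 with sex as covariate). The *Tbx5* call was lost without Kat6a–/–Kat6b+/+ replicate 1, 2 or 4 or Kat6a–/–Tg(Kat6b) replicate 1, 3 or 4 (edgeR FDR 0.0505 to 0.0797) and with the replicate block (0.0508). Somite markers summed to 171 to 179 CPM in Kat6a–/–Tg(Kat6b) and 192 to 198 CPM in Kat6a+/+Tg(Kat6b) embryos. In Kat6a–/–Tg(Kat6b) embryos 1 of these 6 was called lower than in Kat6a–/–Kat6b+/+ embryos. Against wild type it was 1 and against Kat6a+/+Tg(Kat6b) embryos 2, and 0 were called higher.

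Yolk sac endoderm and liver bud markers varied widely. They summed to 13.6 to 56.3 CPM in wild-type, 8.57 to 15.7 CPM in Kat6a–/–Kat6b+/+, 39.2 to 52.0 CPM in Kat6a–/–Tg(Kat6b) and 3.63 to 49.9 CPM in Kat6a+/+Tg(Kat6b) embryos, with 0 of 6 called in any comparison. The Kat6a–/–Kat6b+/+ and Kat6a–/–Tg(Kat6b) sums did not overlap, so these markers moved with the genotypes in which 5 trunk members were called. Erythroid markers summed to 2987 to 4713 CPM in wild-type and 2509 to 4783 CPM in Kat6a–/–Kat6b+/+ embryos. The trophoblast markers *Tpbpa* and *Prl8a2* were at 0 in every library. The part of neural, yolk sac or other tissue content in the trunk *Hox* results was not tested.

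Profiles most like that of the trunk members were sought over the 16 embryos, by the root mean square difference from the members' mean log2 CPM, both centred on the wild-type mean. That mean profile stood at -0.10 in Kat6a–/–Kat6b+/+ embryos and at 0.16 in each genotype with the transgene. The closest genes outside the *Hox* family were *Pnn* (0.0728), *Pdcd7* (0.0738), *Ncstn* (0.0794), *Zfp930* (0.0800) and *Arglu1* (0.0804), against 0.201 for the median gene tested. Among the members, *Hoxb8* (0.0768) lay closest to their mean and *Hoxa6* (0.274) and *Hoxa7* (0.223) farthest from it.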

How the data were processed

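RNA of 16 whole E9.5 embryos was prepared with a TruSeq RNA kit, which does not mark strand, and sequenced as paired-end reads. The authors deposited raw counts per gene, made with Rsubread and featureCounts on mm39 (versions not given in the sources used here). Depth was 14407277 to 45665680 counts per embryo, and the genes kept held 99.95 to 99.96% of them.

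Genes were kept by edgeR's filter (minimum count 10, minimum total 15), scaled by TMM (factors 0.985 to 1.02) and tested with edgeR 4.0.16 quasi-likelihood fits over all 16 embryos, with genotype and 2 surrogate variables (sva 3.50.0), in R 4.3.3. The first surrogate variable was positive in 8 of 8 females and 0 of 8 males. RPKM used the deposited gene lengths, which differ from GENCODE exon lengths by enough to change the order of the members. DESeq2 1.42.0 and limma-voom (limma 3.58.1) were alternatives, beside other covariates, filters and each embryo left out. The test was checked on simulated counts drawn without litter or sex effects. That check therefore does not bear on calls that change with litter, sex or surrogate variables.

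Embryos were grouped by the genotype labels. The 8 members and the lists of regulators, cofactors and markers were chosen with earlier results of these data known. From each list the genes past the threshold with the largest log2 fold changes in Kat6a–/–Kat6b+/+ embryos were named, up to 6, or in any comparison where none passed there. Promoter windows came from RefSeq (GRCm38.p6) and positions from GENCODE (GRCm39).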

Additional observations from a re-analysis of the deposited data

Results flagged for a closer look

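Of the 32 groups of 4 embryos formed by the 8 trunk members and 4 genotypes, 2 held an embryo far from the others by Dixon's test at the 95% level, where chance alone gives about 1 in 20 groups. *Hoxb7* stood at 15.2 CPM in Kat6a+/+Tg(Kat6b) replicate 3 and at 12.8 to 13.1 CPM in the other embryos of that genotype. *Hoxc8* stood at 18.5 CPM in Kat6a–/–Kat6b+/+ replicate 1 and at 22.8 to 23.4 CPM in the others.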

How the results depend on the processing

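Members called in Kat6a–/–Kat6b+/+ against wild-type embryos numbered 2, and 1 with no surrogate variable, 1 surrogate variable, sex as covariate or limma-voom, 3 with DESeq2 and 0 with litter as a block. Leaving out 1 embryo gave 1 to 2, and 1 without wild-type replicate 3 or 4, Kat6a–/–Kat6b+/+ replicate 1, 3 or 4, Kat6a+/+Tg(Kat6b) replicate 2 or 4 or any Kat6a–/–Tg(Kat6b) embryo. For Kat6a–/–Tg(Kat6b) against Kat6a–/–Kat6b+/+ embryos the 5 calls became 3 with no surrogate variable, 1 surrogate variable or sex as covariate and 3 to 6 on leaving out 1 embryo, with 3 without Kat6a–/–Kat6b+/+ replicate 1, 3 or 4 or Kat6a–/–Tg(Kat6b) replicate 2 or 4 and 6 without wild-type replicate 2. The counts of 0 members for Kat6a–/–Tg(Kat6b) against wild-type and against Kat6a+/+Tg(Kat6b) embryos became at most 1, without wild-type replicate 2, and that of the interaction 1 with DESeq2. For Kat6a+/+Tg(Kat6b) against wild type 0 members were called under every alternative run. No called member changed sign. Of the ranks of the 8 members by RPKM in wild type, 1 was kept with GENCODE exon lengths in place of the deposited ones, an alternative chosen after seeing the data, and 6 to 8 on leaving out 1 embryo (6 without wild-type replicate 1 or 3). Library scaling moves all genes of an embryo alike and says nothing about this order.

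Replicate numbers are shared by the genotypes but did not pair the embryos: 24 same-numbered pairs had correlations of -0.255 to 0.215, and 4 of 16 embryos correlated best with their own number. With the replicate block, 2 members were again called in Kat6a–/–Kat6b+/+ against wild-type embryos, *Hoxa6* and *Hoxa7* (edgeR FDR = 0.0482), while *Hoxc6* had an edgeR FDR of 0.0507.

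Over all genes, Kat6a–/–Kat6b+/+ against wild type gave 295 calls, and 95 with no surrogate variable, 96 with 1, 91 with sex and 18 with the litter block. Kat6a–/–Tg(Kat6b) against Kat6a–/–Kat6b+/+ gave 1119, and 614, 606 and 589 in the first 3 of these settings. Kat6a–/–Tg(Kat6b) against wild type gave 105 and 240 with DESeq2, and against Kat6a+/+Tg(Kat6b) 535, 880 with DESeq2 and 286 with the replicate block. Kat6a+/+Tg(Kat6b) against wild type gave 22, and 5 with no or 1 surrogate variable or with sex, 202 with DESeq2 (88.1% lower, against 59.1%), 41 with no filter, 12 with the replicate block and 1 with the litter block. The interaction gave 24, 133 with DESeq2 and 42 with no filter. Leaving out 1 embryo gave, in the order named here, 137 to 432, 492 to 1671, 39 to 210, 165 to 876, 1 to 108 and 16 to 81 calls. The cause of these shifts was not tested. At 150 to 2610 counts per embryo and 4 embryos per genotype, some differences well above their standard errors did not pass. In Kat6a–/–Kat6b+/+ against wild-type embryos *Hoxa7* differed by 0.29 ± 0.080 (SE, edgeR FDR = 0.0672). The smallest difference that could be detected was not estimated.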
